A study of Mus musculus with 4 samples.

Results

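Small nucleolar RNA host genes are genes whose transcripts carry small nucleolar RNAs (snoRNAs), mostly inside their introns. The host genes described here are every gene whose symbol in the transcript tables is Gas5 or Snhg followed by a number. There were 11 such genes among 22730 gene symbols, namely Gas5, Snhg1, Snhg3, Snhg4, Snhg6, Snhg7, Snhg8, Snhg9, Snhg10, Snhg11 and Snhg12, with 1 transcript row each. The values are read counts from RNA sequencing of total thymocytes, the developing T cells of the thymus. The groups were 2 hnRNP L knockout (KO) mice and 2 wild-type mice, with 1 library per mouse. hnRNP L is an RNA-binding protein that regulates splicing, and the comparison asks which RNAs and junctions differ when its gene is targeted. All 4 mice carry the same label for a mixed background that combines C57BL/6, an LckCre transgene, the Gt(ROSA)26Sortm4(ACTB-tdTomato,-EGFP)Luo reporter and CD45.1. The Lck promoter of such a transgene is active in developing T cells, and the sources used here state neither the age of the mice nor which of them carried Cre.

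SnoRNAs guide chemical modification of ribosomal and other RNAs, box C/D snoRNAs guiding methylation of the ribose and box H/ACA snoRNAs guiding the change of uridine to pseudouridine. In vertebrates most of them are cut out of introns after the host transcript is spliced, and proteins that bind the snoRNA protect it from the exonucleases that remove the rest of the intron. The spliced exons of hosts such as Gas5 and Snhg1 have little coding potential, and spliced Gas5 RNA is a known substrate of nonsense-mediated decay. Gas5 is known as a transcript that accumulates when cells stop growing. Reads assigned to a host model can therefore come from spliced RNA, from host RNA not yet spliced or from a snoRNA that lies within the model. Reads across an exon-exon junction, in contrast, come from spliced RNA.

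The libraries held 69061265 and 75485061 mapped reads for KO replicates 1 and 2, against 99782558 and 122619310 for wild-type replicates 1 and 2. Known junctions took between 3263881 and 6075495 of the reads per library. Thymocyte markers were found for 15 of 15 listed genes, all above 1 CPM (reads scaled to the size of the library) in every library, with a summed level of 22555 and 18175 CPM in the KOs and 21829 and 21665 CPM in the wild types. Hnrnpl itself had 467 and 208 CPM in the KOs, against 854 and 813 CPM in the wild types (log2 change -1.30, SE 0.42, adjusted p = 0.486), and its log2 change was -2.01 without KO replicate 1 (adjusted p = 0.0041, the spread then coming from the wild types alone) and -0.84 without KO replicate 2 (adjusted p = 0.113). Reads of the Y-linked gene Ddx3y numbered 4116 and 1 in the KOs, against 17 and 1 in the wild types, so 1 KO mouse was male and the other, like the wild types, female. Genes of small RNAs, of which the tables list 902, took 1.59% and 0.778% of the gene reads in the KOs, against 6.50% and 1.09% in the wild types. Wild-type replicate 1 thus stands apart in its small RNA reads. Erythroid markers summed to 520 and 140 CPM in the KOs, against 187 and 174 CPM in the wild types, and their part in the results was not tested.

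The models behind the counts differ in how much snoRNA sequence they hold, and the sequences below show the pieces the results turn on. The deposited model of Gas5 (NR_002840, mm9 chromosome 1, 162965297 to 162968668, plus strand) spans 3372 bases with 3 known junctions, and its exons are 2382, 43, 48 and 81 nt long. In the GENCODE M21 annotation of a later build, GRCm38, the Gas5 transcript with the most exons has 12 of them, and the locus holds 9 snoRNA entries. Of these 9, 6 lie inside the 2382-nt first exon of the annotated transcript with that exon length. If the mm9 exon holds the same sequence, the deposited Gas5 count takes in reads of these snoRNAs, and they have no rows of their own from which they could be taken off. The model of Snhg8 (NR_028574, mm9 chromosome 3, 123210470 to 123211254, minus strand) is 1 exon of 785 nt with Snora24 inside it. In GENCODE M21 the Snhg8 transcript with the most exons has 3. The GENCODE transcript matched to the deposited one has a first exon of 776 nt and also holds Snora24 in an exon. The other 9 models have 1 to 9 known junctions, and no small RNA row of the tables lies in an exon of theirs.

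Of the snoRNAs named here, Snora24 is shown because it lies in the counted exon of Snhg8, Snord78 because it lies in the long exon of Gas5, Snord47 because it is the Gas5 snoRNA with a row of its own, and Snord22 because it had the most reads of the small RNAs inside the hosts. The sequences are from GENCODE M21 on GRCm38, at chr3:123507937-123508066 (minus strand), chr1:161036984-161037049 (plus), chr1:161038082-161038158 (plus) and chr19:8725866-8725991 (plus). Capitals mark an ACA within the last 8 bases for Snora24, which is of the H/ACA class. For the other 3, which are of the C/D class, they mark TGATGA (box C) within the first 30 bases where it is present and CTGA (box D) within the last 20.
Snora24: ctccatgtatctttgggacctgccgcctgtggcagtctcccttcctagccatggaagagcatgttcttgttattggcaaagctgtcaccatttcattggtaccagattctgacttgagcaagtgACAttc
Snord78: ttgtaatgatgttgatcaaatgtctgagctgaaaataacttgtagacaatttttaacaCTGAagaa
Snord47: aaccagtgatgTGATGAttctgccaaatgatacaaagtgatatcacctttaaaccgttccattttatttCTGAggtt
Snord22: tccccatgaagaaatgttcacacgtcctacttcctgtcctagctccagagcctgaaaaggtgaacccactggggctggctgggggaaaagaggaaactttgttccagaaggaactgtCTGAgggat
Of 1553 annotated snoRNA and small Cajal body RNA transcripts of at least 60 nt, 20.3% hold TGATGA and CTGA in these windows and 47.7% hold ACA in its window, all read on the strand of the RNA.

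The spliced host RNA was read from junctions. The 40 bases around 4 of them are shown because they carried the most junction reads of the family or, for the Gas5 junction 2, because Snord47 lies in the intron they replace. Capitals mark the last 2 bases of one exon and the first 2 of the next. The sequences are from GENCODE M21 transcripts (GRCm38), matched to the deposited junctions by intron length, which was possible for 27 of 33 known junctions. In mm9 the exon edges joined are 162967678 and 162968126, 162968168 and 162968356, and 162968403 and 162968588 on chromosome 1 for Gas5, and 8799536 and 8799712 on chromosome 19 for Snhg1.
Gas5 junction 1: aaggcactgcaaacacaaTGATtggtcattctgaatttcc
Gas5 junction 2: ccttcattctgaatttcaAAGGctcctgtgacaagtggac
Gas5 junction 3: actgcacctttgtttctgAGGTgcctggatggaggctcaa
Snhg1 junction 5: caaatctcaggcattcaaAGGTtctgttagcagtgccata

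Levels per transcript length put Gas5 far above the other hosts. The deposited RPKM value (reads relative to the length of the transcript and the depth of the library) of Gas5 averaged 667 ± 236 in the KOs and 1665 ± 1562 in the wild types (SD, n = 2 each, as for every mean below). In the KOs the next were Snhg1 at 38.1 ± 9.94 RPKM, Snhg6 at 25.5 ± 1.55, Snhg8 at 13.0 ± 1.22 and Snhg3 at 9.82 ± 1.71. In the wild types Snhg8 came second at 73.1 ± 80.8 RPKM, within its SD of Snhg1 at 33.2 ± 7.46, which in turn was within its SD of Snhg6 at 27.7 ± 0.0666. In wild-type replicate 2 alone Gas5 was still first at 560 RPKM, and Snhg8 at 15.9 RPKM lay below Snhg1 at 38.4 and Snhg6 at 27.6 RPKM. Snhg12, Snhg7 and Snhg4 lay close together, at 6.37 ± 1.81, 6.30 ± 1.32 and 5.91 ± 1.63 RPKM in the KOs and 6.11 ± 0.393, 5.93 ± 0.15 and 5.27 ± 0.566 RPKM in the wild types. Snhg9 averaged 3.54 ± 0.419 RPKM in the KOs and 3.34 ± 1.08 RPKM in the wild types, near Snhg10 at 3.02 ± 0.439 RPKM in the KOs and 3.85 ± 0.511 RPKM in the wild types. Snhg11, the only host with an NM_ (protein-coding) accession, was lowest at 0.204 ± 0.139 RPKM in the KOs and 0.102 ± 0.0149 RPKM in the wild types.

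Measured by spliced reads instead, as CPM per known junction, Gas5 was again first, with 106 ± 6.76 in the KOs and 88.8 ± 7.52 in the wild types. Snhg1 followed with 18.5 ± 3.92 CPM per junction in the KOs and 14.9 ± 5.44 in the wild types, and Snhg6 with 11.5 ± 1.78 in the KOs and 15.9 ± 2.29 in the wild types, which is within the SD of Snhg1 in the wild types. The wild-type SD of Gas5 was thus 7.52 on a mean of 88.8 by spliced reads, and 1562 on a mean of 1665 by RPKM. Snhg8 has no junction in its model and could not be ranked this way. Snhg11 had 0 and 4 junction reads in the KOs and 4 and 0 in the wild types, and a count of 0 allows up to 3 reads.

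**Figure D1:**
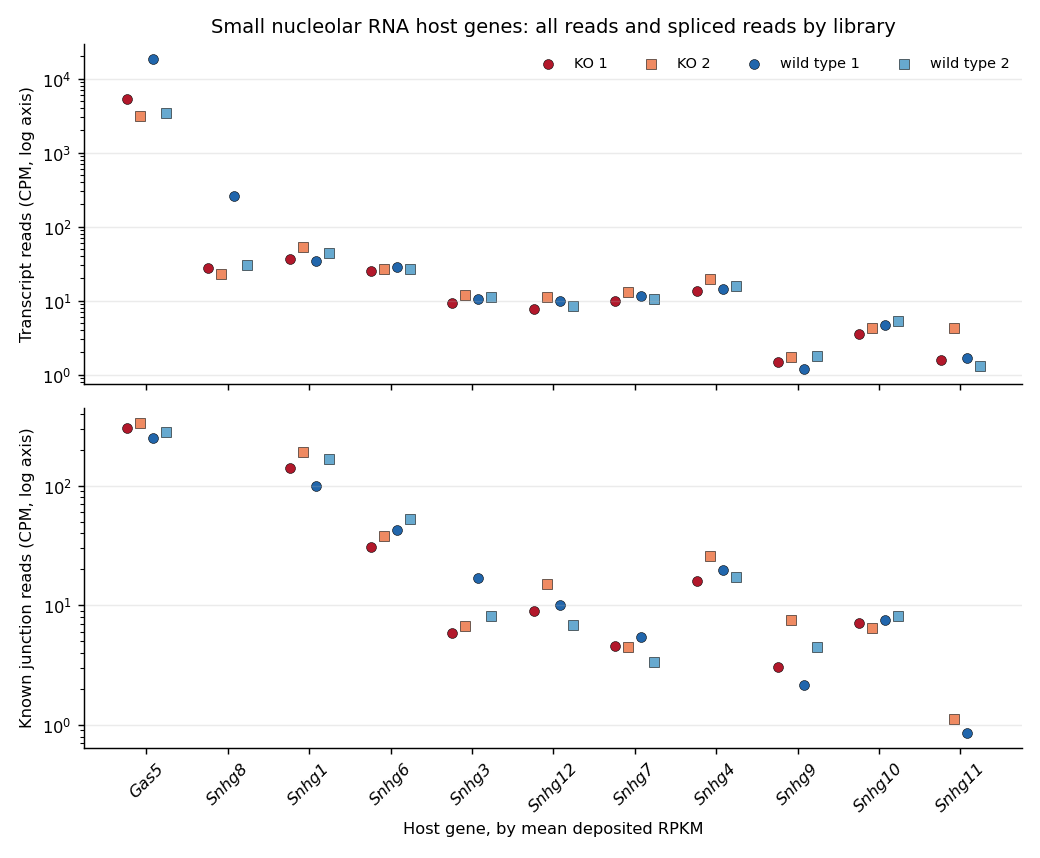
Reads of the 11 host genes in each library on log axes, as transcript reads (upper panel, CPM) and known junction reads (lower panel, CPM). Points are single libraries, KO to the left of wild type, and libraries with 0 reads are not drawn. In the upper panel wild-type replicate 1 stands far above the others for Gas5 and Snhg8. In the lower panel it is the lowest point for Gas5 and stands above the others for Snhg3, while Snhg8 has no known junction and no point.

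Transcript reads of no host gene passed the test between KO and wild type. All 11 passed the filter on low counts, and 0 of 11 were called, where 0.00728% of the 13733 tested genes were called (1 gene, edgeR quasi-likelihood test with Benjamini-Hochberg adjustment at 0.05) and 9.9% had an unadjusted p under 0.05. None of the 11 had an unadjusted p under 0.05. DESeq2 and limma-voom called none of them either. Of the log2 changes 6 were positive and 5 negative, with a median of 0.05, against a median of 0.01 over all tested genes. The groups did not overlap for 3 hosts, Snhg6, Snhg8 and Snhg10, each lower in KO, where 21.4% of all tested genes lay wholly lower in KO. In bulk thymocytes fewer cells of a type and less RNA per cell cannot be told apart.

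Gas5 had 147016 and 96355 reads in the KOs, against 705721 and 175418 in the wild types. Scaled to library size these are 5323 and 3112 CPM in the KOs, against 18124 and 3438 CPM in the wild types. Only wild-type replicate 1 is high, and the groups overlap, since KO replicate 1 lies above wild-type replicate 2. The log2 change of -1.35 had an SE of 1.11 (adjusted p = 0.701). Without wild-type replicate 1 it was 0.30 (adjusted p = 0.998), and without wild-type replicate 2 it was -2.10 (adjusted p = 0.243). Gas5 alone held 0.534% and 0.336% of all gene reads in the KOs, against 1.69% and 0.34% in the wild types, and the other 10 hosts together held 0.0137% and 0.0182% in the KOs, against 0.0353% and 0.0154% in the wild types.

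Snhg8 had 752 and 720 reads in the KOs, against 10202 and 1534 in the wild types, or 27.2 and 23.3 CPM against 262 and 30.1 CPM. The groups do not overlap, but wild-type replicate 2 lies close to the KOs and wild-type replicate 1 far above. The log2 change was -2.53 (SE 1.47, adjusted p = 0.628). It was -0.25 without wild-type replicate 1 (adjusted p = 0.998) and -3.37 without wild-type replicate 2, when it passed (adjusted p = 0.000519) among 43 called genes, with the lone wild type assumed to vary like the KOs.

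Snora24, the snoRNA inside the Snhg8 exon, has a count row of its own, so that the Snhg8 reads could be split. It had 427 and 346 reads in the KOs, against 9760 and 922 in the wild types. That is 56.8% and 48.1% of the Snhg8 reads in the KOs (95% Clopper-Pearson intervals 53.2 to 60.4% and 44.4 to 51.8%), against 95.7% and 60.1% in the wild types (95.3 to 96.1% and 57.6 to 62.6%). What was left amounted to 325 and 374 reads in the KOs and 442 and 612 reads in the wild types, or 11.8 and 12.1 CPM in the KOs and 11.4 and 12.0 CPM in the wild types. The 4 libraries lie within 1 CPM of each other once Snora24 is taken off. The means were 11.9 ± 0.221 CPM in the KOs and 11.7 ± 0.456 CPM in the wild types. The log2 change of these remaining reads was 0.03 (SE 0.16, adjusted p = 0.955), a calculation added after the reads had been seen.

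**Figure D2:**
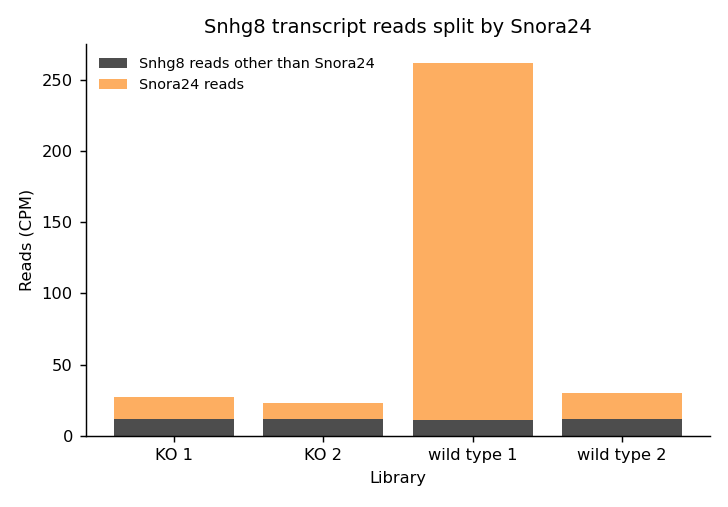
Snhg8 transcript reads in each library (CPM, linear axis from 0), split into reads of Snora24 and all others. The dark parts lie between 11.4 and 12.1 CPM, while the Snora24 part of wild-type replicate 1 is 251 CPM, against 15.5 and 11.2 CPM in the KOs and 18.1 CPM in wild-type replicate 2.

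The other 9 hosts had log2 changes between -0.35 and 0.99 in transcript reads. Snhg1, host of several C/D snoRNAs, had 36.9 and 52.3 CPM in the KOs, against 34.0 and 44.0 CPM in the wild types (log2 change 0.19, SE 0.20, adjusted p = 0.722). Snhg6 had 24.8 and 26.4 CPM in the KOs, against 28.9 and 27.0 CPM in the wild types (-0.13, SE 0.13, adjusted p = 0.734). Snhg10 had 3.58 and 4.30 CPM in the KOs, against 4.73 and 5.35 CPM in the wild types (-0.35, SE 0.24, adjusted p = 0.605). Both Snhg6 and Snhg10 were lower in the KOs in all 4 pairings of a KO with a wild type, and neither was called. Snhg11 had 43 and 134 reads in the KOs, against 66 and 66 in the wild types (log2 change 0.99, SE 0.48, adjusted p = 0.527). KO replicate 2 alone is high, and without KO replicate 1 the Snhg11 change was 1.53 and passed (adjusted p = 0.0443) among 427 called genes, with the lone KO assumed to vary like the wild types, against 0.06 without KO replicate 2 (adjusted p = 0.97). The log2 changes of Snhg3, Snhg4, Snhg7, Snhg9 and Snhg12 lay between -0.04 and 0.16, each smaller than its SE, with adjusted p between 0.776 and 0.948.

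Small RNAs inside the hosts were lower on average in the KOs in every case, and wild-type replicate 1 was the highest library for each. The tables list 14 small RNA genes inside 9 of the hosts, all on the host's strand. By the deposited models 13 are in introns, and Snora24 is in the single exon of the Snhg8 model. All 14 were tested and 0 were called (background 0.00728%), with log2 changes from -3.33 (Snora24) to -0.71 (Scarna13) and a median of -2.23. Wild-type replicate 1 had the highest CPM for 14 of 14, by 1.47 to 14.0 times the next library, and KO replicate 1 stood above KO replicate 2 for 14 of 14. The groups did not overlap for 4 of the 14, Snord47, Snora61, Snora17 and Snora24, all lower in KO, where 21.4% of all tested genes lay wholly lower in KO. Without wild-type replicate 1 there were 9 lower and 5 higher, with a median log2 change of -0.18 and none called. Without wild-type replicate 2, Snora24 and Snora43 passed (log2 change -4.23, adjusted p = 0.000519, and -2.98, adjusted p = 0.0197), among 43 genes called in that fit, whose spread comes from the KOs alone.

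Reads of a snoRNA can be set beside reads across the junction of its intron, but these are unlike counts. A junction takes in only the reads that cross a single point of the spliced RNA. Within Snhg1 the total over the libraries ran from 29 reads at junction 1 to 1008 at junction 5. The counts below therefore give no ratio of snoRNA to spliced host. Snord22, in the intron under Snhg1 junction 8, had 39753 and 10501 reads in the KOs, against 427485 and 44100 in the wild types, while that junction had 27 and 38 reads in the KOs, against 31 and 70 in the wild types. The log2 change of Snord22 was -2.74 (SE 1.96, adjusted p = 0.677) and turned to 0.04 without wild-type replicate 1. Snora17, an H/ACA snoRNA in the intron under Snhg7 junction 2, had 3328 and 1356 reads in the KOs, against 46582 and 6925 in the wild types, while the junction had 7 and 8 reads in the KOs, against 10 and 4 in the wild types. Its log2 change was -3.02 (SE 1.66, adjusted p = 0.616), and -0.72 without wild-type replicate 1. Snord47, in the intron under Gas5 junction 2, had 1708 and 1213 reads in the KOs, against 8575 and 3366 in the wild types (log2 change -1.50, SE 0.86, adjusted p = 0.619), and its change was -0.38 without wild-type replicate 1. Snord87, a C/D snoRNA of Snhg6, had 9443 and 3668 reads in the KOs, against 37383 and 7701 in the wild types (-1.27, SE 1.41, adjusted p = 0.778), and its change turned to 0.61 without wild-type replicate 1.

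Snhg12 holds 4 H/ACA or C/D snoRNAs, 1 in each of its introns. In order along the gene, Snora16a had 57.8 and 11.7 CPM in the KOs, against 386 and 17.1 CPM in the wild types. Snora44 had 41.5 and 9.56 CPM in the KOs, against 221 and 27.7 CPM in the wild types. Snora61 had 29.8 and 10.2 CPM in the KOs, against 92.5 and 30.8 CPM in the wild types, and Snord99 had 2.86 and 1.55 CPM in the KOs, against 11.4 and 1.41 CPM in the wild types. The 4 differ in level but share the order of wild-type replicate 1 first and KO replicate 1 second, except Snora61, where wild-type replicate 2 was just above KO replicate 1. Scarna13, a small Cajal body RNA in the single intron of Snhg10, was the least uneven, with 158 and 74.1 CPM in the KOs, against 233 and 148 CPM in the wild types. The remaining small RNAs were Snora74a and the microRNA Mir1949 of Snhg4, Snora43 of Snhg7 and Snora78 of Snhg9, with log2 changes between -3.32 and -1.59. Without wild-type replicate 1 these changes were -0.073 (Snora74a), -0.53 (Mir1949), -0.25 (Snora43) and 0.093 (Snora78). Of the Snhg12 snoRNAs, Snora44 and Snora61 then had -0.12 and -0.62, Snora16a and Snord99 had 1.02 and 0.64, and Scarna13 had -0.35. Together the 14 took 0.232% and 0.0731% of gene reads in the KOs, against 1.39% and 0.148% in the wild types.

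**Figure D3:**
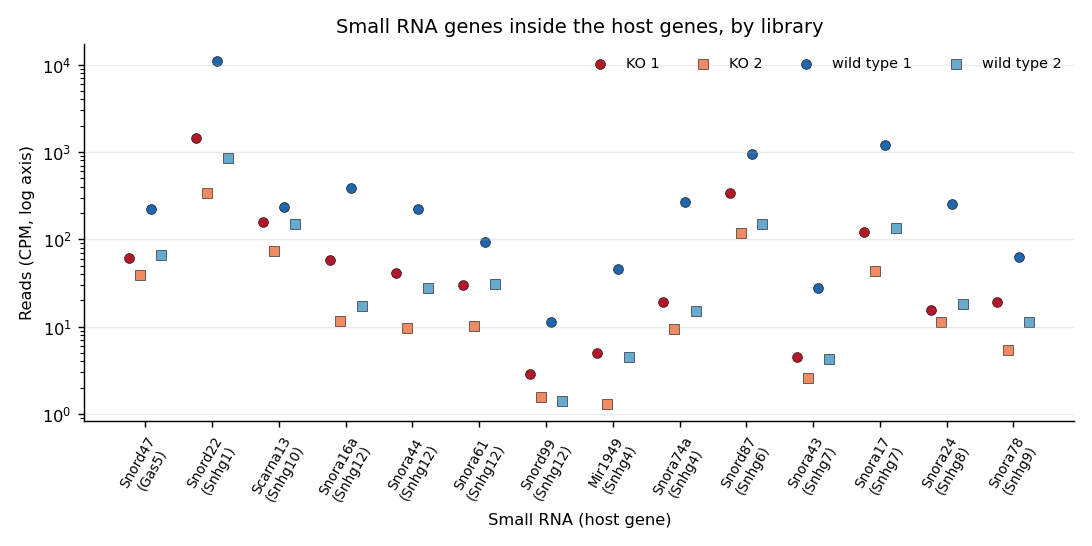
CPM on a log axis of the 14 small RNA genes inside the hosts, with the host in brackets. Points are single libraries, KO to the left of wild type. Wild-type replicate 1 is the highest point for all 14, and KO replicate 1 lies above KO replicate 2 for all 14.

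Spliced host RNA, counted as reads over the known junctions of each gene, did not differ past the threshold for any host either. Of the hosts 10 have known junctions, 33 in all, each with a read in some library, and 9 hosts passed the filter on low counts. Of these 9, 0 were called, where 0.0302% of the 9939 tested genes were called, and 2 of 9 had an unadjusted p under 0.05, where 8.8% of all tested genes did. The 9 log2 changes had a median of 0.19, against 0.00038 over all tested genes. Leaving out any 1 library called none of the 9.

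Gas5 had 989 and 1182 junction reads in the KOs, against 1161 and 1684 in the wild types. Scaled to library size these are 303 and 332 CPM in the KOs, against 250 and 282 CPM in the wild types, so both KOs lay above both wild types. The log2 change was 0.25 (SE 0.16, adjusted p = 0.691), and it stayed between 0.17 and 0.34 whichever library was left out. Among all tested genes 19.7% lay wholly higher in KO by junction reads.

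Snhg3, host of the H/ACA snoRNAs Snora73a and Snora73b, had 19 and 24 junction reads in the KOs, against 78 and 49 in the wild types, or 5.83 and 6.74 CPM against 16.8 and 8.21 CPM. Both KOs lie below both wild types, and wild-type replicate 1 is well above the rest. The log2 change was -0.97 (SE 0.40, unadjusted p = 0.025, adjusted p = 0.509), and -0.38 without wild-type replicate 1. Snhg6 had 100 and 136 junction reads in the KOs, against 199 and 314 in the wild types, or 30.7 and 38.2 CPM against 42.9 and 52.6 CPM. The Snhg6 groups do not overlap, and its log2 change was -0.47 (SE 0.22, unadjusted p = 0.0455, adjusted p = 0.562). Snhg10, with 7.06 and 6.46 CPM in the KOs against 7.55 and 8.21 CPM in the wild types, was also wholly lower (-0.22, SE 0.39, adjusted p = 0.916). These 3 of the 10 hosts with junctions stand beside 19.2% of all tested genes that lay wholly lower in KO.

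Snhg1 had 461 and 681 junction reads in the KOs, against 461 and 1006 in the wild types, or 141 and 191 CPM against 99.4 and 169 CPM, and the groups overlap (log2 change 0.31, SE 0.22, adjusted p = 0.745). Without wild-type replicate 1 the Snhg1 change was -0.02. Snhg12 had 29 and 54 junction reads in the KOs, against 47 and 41 in the wild types (0.52, SE 0.37, adjusted p = 0.736), and its change lay between 0.08 and 0.84 with 1 library left out. Snhg9 had 10 and 27 junction reads in the KOs, against 10 and 27 in the wild types, or 3.07 and 7.59 CPM against 2.16 and 4.53 CPM (0.65, SE 0.55, adjusted p = 0.781). Snhg4 and Snhg7 had log2 changes of 0.19 (SE 0.29) and 0.07 (SE 0.50).

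Set against each other, spliced and total reads gave a ratio that differed widely among the hosts. The median tested gene had 118 and 117 known junction reads per 1000 transcript reads in the KOs, against 120 and 117 in the wild types. Gas5 lay far below this with 6.73 and 12.3 per 1000 in the KOs, against 1.65 and 9.60 in the wild types. The exact 95% counting intervals of these are 6.31 to 7.16 and 11.6 to 13.0 in the KOs, against 1.55 to 1.74 and 9.14 to 10.1 in the wild types. The Gas5 junction reads cover only the 3 known junctions of the deposited model, where GENCODE M21 gives up to 11 introns. Reads across any other Gas5 junction are not counted as spliced, and how the ratio would change with them was not tested. Snhg1, with 9 junctions on 476 nt, lay far above the median with 452 and 420 per 1000 in the KOs, against 348 and 448 in the wild types. Snhg9 was also high, at 244 and 509 per 1000 in the KOs, against 213 and 293 in the wild types, on few reads.

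The change of this ratio was tested as the interaction of kind of read with genotype, and 0 of 9 tested hosts were called, where 0% of the 9874 tested genes were called and 4.21% had an unadjusted p under 0.05. limma-voom on the same design also called none. The Gas5 ratio had a log2 change of 1.18 (SE 1.36, adjusted p = 0.999). It was -0.09 without wild-type replicate 1, and 2.49 without wild-type replicate 2, when it passed (adjusted p = 1.09e-252) among 112 called genes, with wild-type replicate 1 as the lone wild type and the spread taken from the KOs. Snhg3 had 73.1 and 65.9 junction reads per 1000 transcript reads in the KOs, against 191 and 84.8 in the wild types, the only host with an unadjusted p under 0.05 (log2 change -0.91, SE 0.39, unadjusted p = 0.032, adjusted p = 0.999). Its ratio change was -0.31 without wild-type replicate 1, and -1.45 without wild-type replicate 2, when it passed in the same fit (adjusted p = 0.0132). Snhg6 had 146 and 166 per 1000 in the KOs, against 177 and 228 in the wild types, with a log2 change of -0.37 (SE 0.19, adjusted p = 0.999), which was -0.16 without wild-type replicate 2. Snhg12 was wholly higher in KO, with 136 and 154 per 1000, against 122 and 94.7 in the wild types (0.45, SE 0.29, adjusted p = 0.999). Ratios lay wholly lower in KO for Snhg3 and Snhg6, 2 of the hosts, where 16.1% of all tested genes did, and wholly higher for Snhg12 alone, where 15.8% did. The other 5 hosts had ratio changes between -0.01 and 0.55.

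**Figure D4:**
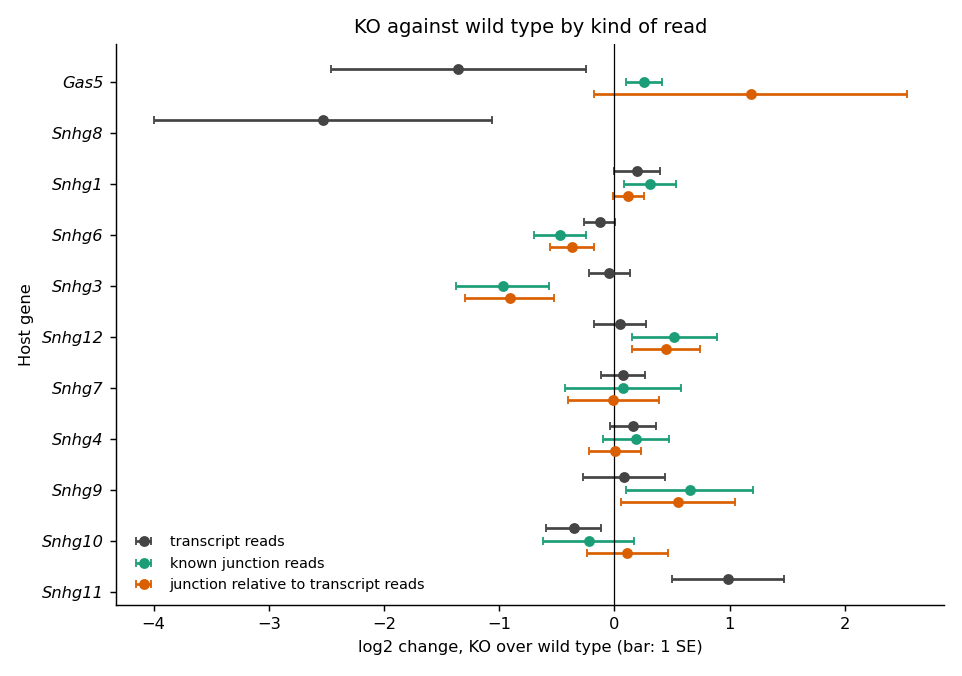
Log2 change, KO over wild type, of each host by transcript reads, known junction reads and the ratio of junction to transcript reads. Points are the edgeR estimates and bars are 1 SE. The transcript estimates of Gas5 (-1.35) and Snhg8 (-2.53) have the widest bars of that measure, and the Gas5 junction estimate is 0.25.

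Use of single junctions within a host was tested for 27 junctions of 7 hosts, and 0 of 27 were called, where 0.0042% of the 95139 tested junctions were called and 2.55% had an unadjusted p under 0.05. None of the 27 had an unadjusted p under 0.05, the smallest being 0.0893. limma-voom called none of the 5 named below. The 5 junctions with the smallest p were Snhg12 junction 1, Snhg1 junctions 1, 6 and 2, and Gas5 junction 2, each with an adjusted p above 0.999. Snhg12 junction 1 had 6 and 12 reads in the KOs, against 4 and 3 in the wild types (log2 change in use 1.41). Snhg1 junction 1 had 9 and 11 reads in the KOs, against 6 and 3 in the wild types (1.40, and between 0.42 and 2.49 with 1 library left out), and Snhg1 junction 6 had 25 and 30 in the KOs, against 13 and 26 in the wild types (0.83). Snhg1 junction 2 had 54 and 66 reads in the KOs, against 73 and 129 in the wild types (-0.41).

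Along Gas5, junctions 1 and 3 carried most reads in every library. Junction 1 had 465 and 527 reads in the KOs, against 588 and 785 in the wild types, and junction 3 had 481 and 564 in the KOs, against 513 and 836 in the wild types. Junction 2, between the 43-nt and 48-nt exons, had 43 and 91 reads in the KOs, against 60 and 63 in the wild types, and KO replicate 2 alone is high. Its log2 change in use was 0.47 (unadjusted p = 0.174), and -0.02 without KO replicate 2. Along Snhg1, junction 5, between exons of 33 and 35 nt, carried 194 and 230 reads in the KOs, against 165 and 419 in the wild types, more than any other Snhg1 junction in each library. The same pattern along the gene, with junction 1 lowest in each library and junction 5 highest, held in KO and wild type alike.

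**Figure D5:**
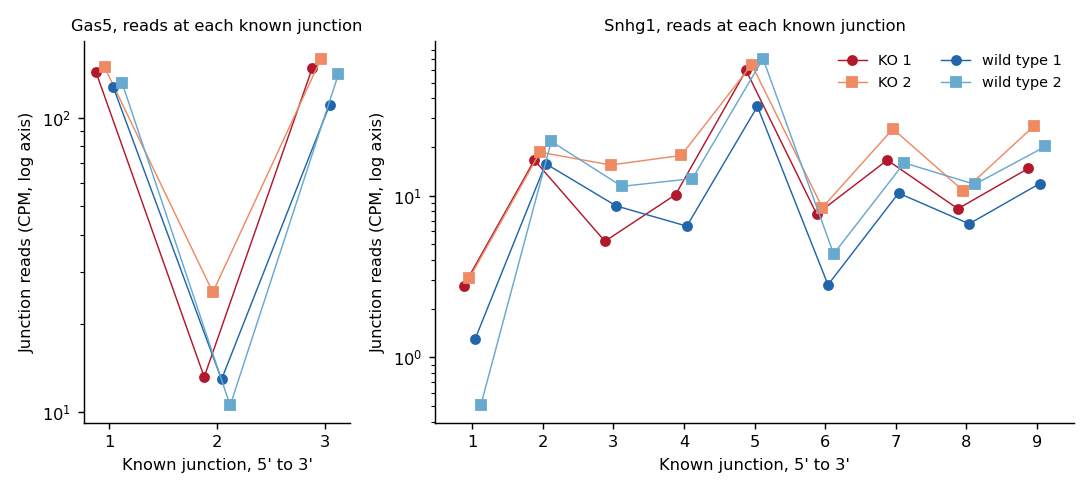
Reads at each known junction of Gas5 and Snhg1 in each library (CPM, log axis), numbered 5′ to 3′. In all 4 libraries Gas5 junction 2 lies below its neighbours and Snhg1 junction 5 above them.

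Putative junctions, which skip annotated exons or join others, numbered 61 in the hosts, and 6 had a read. The most was 8 reads, for a join of Snhg7 exon 1 to exon 3 (mm9 chromosome 2, 26493615 to 26495578), with 4 and 2 reads in the KOs, against 2 and 0 in the wild types, too few for the test. The other 5 had 1 to 3 reads each over the 4 libraries.

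Start sites were described as a feature that the choice of genes did not use. Genes of the translation machinery and many snoRNA hosts are known to begin with a C followed by a run of pyrimidines (a 5′ terminal oligopyrimidine tract). RefSeq promoter entries (GRCm38.p6) were found for 9 of the 11 hosts, 10 entries in all, since Gas5 has a pair. A C followed by C or T to a length of at least 6, starting within 8 bases of the annotated start on the gene's strand, was present in 5 of the 10 entries, those of Snhg7, Snhg8, Snhg10 and Snhg12 and 1 of Gas5, and in 14.8% of all 32851 promoter entries. Runs were measured from the first C of each pyrimidine stretch, and a stretch whose first C lay farther out was left out, here and in the share of all entries. The other Gas5 entry (chr1:161034581-161034630) has a run of 3. By this measure the runs of Snhg1, Snhg3, Snhg9 and Snhg11 are 4, 5, 2 and 3 bases long. Snhg9 also has a longer stretch that begins just outside the window. For Gas5 (the entry with the run) and Snhg8, the hosts with the widest spread, and for Snhg12 with the longest run of 8 bases, the 50 bases from 20 before the start are shown, with the run in capitals. They lie at chr1:161035146-161035195 (plus strand), chr3:123508307-123508356 (minus) and chr4:132308658-132308707 (plus).
Gas5: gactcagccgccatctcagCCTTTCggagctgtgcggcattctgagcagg
Snhg8: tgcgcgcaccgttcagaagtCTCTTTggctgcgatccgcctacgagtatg
Snhg12: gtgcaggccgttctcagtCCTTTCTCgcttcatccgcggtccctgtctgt

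Genes that act on snoRNAs and their hosts showed no called change. Of 19 listed proteins of snoRNA particles and their assembly, all were tested, 0 were called, 11 changes were positive and 8 negative, and the median log2 change was 0.01. The smallest p belonged to Pih1d1, an assembly factor, with 32.8 and 31.2 CPM in the KOs, against 43.4 and 36.4 CPM in the wild types (log2 change -0.32, SE 0.14, adjusted p = 0.501). Nhp2 and Nop10, both core proteins of H/ACA particles, had log2 changes of -0.31 (SE 0.13) and -0.23 (SE 0.11). Of 21 listed factors of nonsense-mediated decay and the exon junction complex, 19 were tested, 0 were called and the median was 0.01. Upf2 and Upf3b, which link the exon junction complex to the decay helicase Upf1, had the smallest p. Upf2 had 61.7 and 61.8 CPM in the KOs, against 44.3 and 50.2 CPM in the wild types (log2 change 0.39, SE 0.11, adjusted p = 0.431). Upf3b had 28.3 and 30.9 CPM in the KOs, against 18.9 and 23.6 CPM in the wild types (0.48, SE 0.16, adjusted p = 0.452), and Upf1 had a log2 change of 0.20 (SE 0.11, adjusted p = 0.557).

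Protein-coding genes that also host snoRNAs served for comparison. Of 41 listed, 40 were tested and 0 were called, with 29 negative and 11 positive log2 changes and a median of -0.08. Over all 13733 tested genes 6711 changes were negative and 7022 positive, with a median of 0.008. By junction reads the 41 had a median of -0.15, against 0.00038 over all tested genes, with 0 called. Many of the listed genes encode ribosomal proteins, and what the uneven count reflects was not tested. Hspa8, a heat shock chaperone gene, had 141 and 150 CPM in the KOs, against 206 and 232 CPM in the wild types (log2 change -0.59, SE 0.12, adjusted p = 0.377), and it passed with DESeq2 (adjusted p = 0.00671). Rpl30, a ribosomal protein gene, had 85.0 and 84.1 CPM in the KOs, against 146 and 108 CPM in the wild types (-0.59, SE 0.16, adjusted p = 0.414). Ncl, which encodes nucleolin of the nucleolus, had 217 and 225 CPM in the KOs, against 150 and 175 CPM in the wild types (0.45, SE 0.13, adjusted p = 0.425).

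The genes whose level followed Gas5 most closely across the 4 libraries were small RNAs. By Euclidean distance between log2 CPM profiles centred on their mean, the 3 nearest of all tested genes were Mir677 (distance 0.26), Mir23b (0.36) and Snord99 (0.40). Mir677 had 9.81 and 6.65 CPM in the KOs, against 41.3 and 6.39 CPM in the wild types. Mir23b rests on few reads, 8 and 5 in the KOs, against 35 and 10 in the wild types, and Snord99 itself lies inside the host Snhg12. For Snhg1 the nearest were St13 (0.02), which encodes a co-chaperone, 6530418L21Rik (0.04) and Dnmt1 (0.06), the maintenance DNA methyltransferase gene. St13 had 93.0 and 131 CPM in the KOs, against 86.4 and 112 CPM in the wild types. The profiles rest on 4 libraries and share their depth and scaling, so the distances are descriptions only.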

How the data were processed

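Per the labels' protocols, RNA of total thymocytes was depleted of ribosomal RNA, fragmented with RNase III, size-selected and sequenced on slides that each held a pair of samples. For each library the authors deposited raw counts per RefSeq transcript with the ratio of reads to length (Reads/nt) and RPKM, and raw counts per known or putative junction. Per the file headers the RPKM values are scaled by mapped reads. The build is mm9, per the submitters' processing notes, and the sources used here name no aligner and no strand setting, so reads of overlapping or antisense genes may be mixed. The ratio column was used in no test, and the deposited RPKM only for levels.

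The transcript row with the most reads was kept per symbol. Tests used edgeR 4.0.16 under R 4.3.3 (robust quasi-likelihood fit, TMM scaling, filterByExpr on low counts, Benjamini-Hochberg adjustment over all features tested, threshold 0.05, KO over wild type). CPM values are TMM-scaled. Junction use was tested with diffSpliceDGE on junctions with at least 10 reads in genes with at least 2 of them. The ratio was fitted over 8 columns, transcript and junction reads of each library. DESeq2 1.42.0, limma 3.58.1 (voom), other scalings and filters, leaving out each library and a replicate term were alternatives. Scripts were tested on simulated data. Intervals are exact (Clopper-Pearson for shares) at 95% and, like the limit of 3 reads for a count of 0, hold for counting error alone, as copies made by PCR are not separate molecules. With 2 against 2 an exact two-sided test cannot go below p = 0.333, so only the models across all features were used. The labels number the mice but do not say that a number pairs them. The rule names the hosts, the small RNAs inside them, the 3 genes of smallest p of each list, the 3 nearest profiles of Gas5 and Snhg1, and the 5 junctions of smallest p where none is called. Members and lists were chosen with earlier results of these data known.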

Additional observations from a re-analysis of the deposited data

How the results depend on the processing

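Depth limits the junction results of Snhg7, Snhg9, Snhg10 and Snhg11 most. Few KO reads also limit Snhg3, with 19 and 24 junction reads in the KOs, against 23 and 23 for Snhg10. Of 641 log2 changes recomputed under an alternative for the hosts, the small RNAs inside them and the other named genes, 594 kept direction and side of the threshold, 35 changed sign (28 of them with 1 library left out) and 12 newly passed; the cause was not tested except where fewer samples were fitted. Called genes by transcript reads were 1, against 108 with DESeq2, 0 with limma-voom, 62 without the filter on low counts and 0 with all rows of a symbol summed, and 2 to 427 with 1 library left out. By junction reads they were 3, against 11 with DESeq2, 63 without the filter and 12 to 81 with a library left out. For the ratio they were 0, against 2 with library totals only, 9 without the filter and 0 to 112 with a library left out. For junction use they were 4, against 2 with known junctions only, 1 with limma-voom and 3 to 12 with a library left out.

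With the replicate number as a block, calls were 121 by transcript reads, 123 by junction reads, 7 for the ratio and 10 for junction use. Same-numbered libraries deviated together at 0.26 (transcript reads) and 0.09 (junction reads), and the labels give them only a shared number. Under this block Scarna13 (-0.78, adjusted p = 0.039), Snora44 (-1.998, adjusted p = 0.0366), Snora61 (-1.61, adjusted p = 0.000251) and Snora78 (-1.41, adjusted p = 0.00662) passed, no host did, and the Snhg7 ratio was 0.015.

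Other settings turned the sign of the Snhg3 transcript change (0.075 with library totals only), of Snhg8 (0.030 with Snora24 subtracted), of the Snhg7 ratio (0.0089 with limma-voom, 0.19 with putative junctions added) and of the Snhg4 ratio (-0.0047 with library totals only, -0.018 with putative junctions added). Leaving out 1 library, transcript changes that turned ranged over -2.10 to 0.30 (Gas5), -0.079 to 0.42 (Snhg1), -0.25 to 0.29 (Snhg12), -0.21 to 0.10 (Snhg3), -0.13 to 0.39 (Snhg4), -0.13 to 0.25 (Snhg7) and -0.17 to 0.41 (Snhg9). Junction read changes ranged over -0.018 to 0.74 (Snhg1), -0.21 to 0.48 (Snhg4), -0.25 to 0.44 (Snhg7) and -0.16 to 1.30 (Snhg9). Ratio changes ranged over -0.087 to 2.49 (Gas5), -0.057 to 0.34 (Snhg1), -0.084 to 0.33 (Snhg10), -0.17 to 0.17 (Snhg4), -0.27 to 0.27 (Snhg7) and -0.11 to 0.96 (Snhg9), and the use of Gas5 junction 2 over -0.020 to 0.80. The small RNAs that turned ranged over -4.13 to 0.042 (Snord22), -4.11 to 1.02 (Snora16a), -2.36 to 0.64 (Snord99), -2.24 to 0.61 (Snord87) and -2.75 to 0.093 (Snora78).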
